A study of Mus musculus with 53 samples.

Results

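The receptors for the colony-stimulating factors, together with the ligand gene Csf1, were followed through the response of mouse macrophages to interleukin 4 (IL-4). They are 6 genes, chosen by their names from the 23847 loci of the deposited expression tables, and every one of them was found and passed the filter for testing. Csf1 encodes macrophage colony-stimulating factor (M-CSF), and Csf1r encodes its receptor, a receptor tyrosine kinase on which macrophages depend for survival. Csf2ra encodes the alpha chain that binds GM-CSF, and Csf2rb encodes the beta chain with which the receptors for GM-CSF, IL-3 and IL-5 signal. Csf2rb2 encodes a second beta chain, found in mice, that serves IL-3. Csf3r encodes the receptor for G-CSF and is best known from neutrophils.

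M-CSF makes its receptor phosphorylate itself and start growth and survival signals, and it is the factor used to grow macrophages from bone marrow. GM-CSF and G-CSF act through receptors without a kinase of their own, which borrow JAK kinases and pass the signal to STAT5 and STAT3. IL-4 acts through its own receptor and STAT6, the transcription factor that drives alternative macrophage polarization. The question put to the data was how the level of each of these receptors moves with IL-4, over time, and with Stat6 knocked out.

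The cells were bone marrow-derived macrophages (BMDMs) of mice 8 to 12 weeks old, either wild type (WT, C57BL/6) or Stat6KO, a full-body knockout of Stat6. All groups, controls included, were grown for 6 days in the supernatant of L929 cells, a fibroblast line used as a source of M-CSF, so that receptor levels were read in cells already exposed to the ligand of Csf1r. Cells then received 20 ng/ml of IL-4 for 1, 3, 6 or 24 h, or served as controls at 0, 1, 3, 6 and 24 h. Polyadenylated RNA was sequenced in 53 samples of 18 groups, with 4 samples in each WT group (3 with IL-4 for 24 h, whose replicate 1 is not analysed here) and 2 in each Stat6KO group.

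Levels are FPKM, that is fragments counted per kilobase of a transcript relative to all mapped fragments of a sample, which can be compared between genes because they are per length. Differences are in log2(FPKM + 1) with their standard error (SE), and this scale understates the changes of low genes such as Csf1. A change "passed" where the adjusted p of limma was under 0.05, and was "called" where it was also at least 2-fold on this scale. All adjusted p-values were corrected over the 11146 loci tested.

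Relative sequencing depth ranged from 0.708 to 1.56 of the median sample, and because only this relative depth is known, single values carry no counting interval. Stat6 itself averaged 80.0 FPKM in WT controls (lowest 70.8, highest 90.6) and 20.2 FPKM in Stat6KO controls (lowest 14.3, highest 24.0), a difference of -1.95 (SE 0.04, limma adjusted p = 6.61e-30). The groups did not overlap, as the labels require, although a transcript from the locus was still measured in the knockout. All 7 macrophage markers listed (Cd68, Emr1, Itgam, Fcgr1, Mertk, Cd14 and Mrc1) were at 1 FPKM or more in every sample. Summed markers were low for dendritic cells (0.812 to 8.78 FPKM), basophils and mast cells (0.486 to 4.13), T, B and NK cells (0 to 0.903) and fibroblasts (0.0178 to 0.961). The summed level of 8 neutrophil markers was not low, at 227 to 632 FPKM in WT and 598 to 1089 in Stat6KO, most of it S100a8 and S100a9. Over all samples Ngp was at 24.0 to 97.7 FPKM, Camp at 3.67 to 29.8 and Ltf at 6.21 to 27.5. Mpo was at 3.80 to 16.1 FPKM, Elane at 2.41 to 13.4 and Cxcr2 at 0.320 to 1.26.

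The 2 beta chain genes are close copies of each other, so their sequences were compared before their levels were read. Csf2rb lies on chromosome 15 (mm10, 78325990 to 78351001, plus strand) and Csf2rb2 beside it on the minus strand (78282510 to 78305603), each with 13 coding exons. Their coding sequences were identical at 2503 of 2628 aligned bases (95.2%), with 1 identical stretch of 242 bases. The window of 60 bases where they differ most, in which capitals mark the 13 bases that are not the same, is shown for each gene to make clear what a read must cross to be told apart.

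Csf2rb, chr15:78338893-78338952, plus strand: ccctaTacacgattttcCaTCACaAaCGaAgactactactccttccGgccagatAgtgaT

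Csf2rb2, chr15:78294379-78294438, minus strand: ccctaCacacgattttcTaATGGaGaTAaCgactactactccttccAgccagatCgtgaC

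Of the 50-base words in the transcripts of Csf2rb, 12.3% also occurred in Csf2rb2, and of those of Csf2rb2, 18.4% occurred in Csf2rb. Fragments from these words cannot be assigned to 1 of the pair by sequence, and how they were shared out between the genes is not given in the sources used here. Csf3r shared 8.8% of its words with a processed pseudogene on chromosome 19, while Csf1 and Csf2ra shared none with another gene. Csf1r shared 14.3% with Hmgxb3, a gene whose annotation overlaps its own but not the locus measured.

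Csf1 lies on chromosome 3 (107741048 to 107760469, minus strand), Csf1r on chromosome 18 (61105572 to 61131139, plus strand), Csf2ra on chromosome 19 (61224402 to 61228418, minus strand) and Csf3r on chromosome 4 (126024659 to 126044975, plus strand), all on mm10. All are protein coding. For each of the 6 genes the locus measured held the whole of the longest annotated coding sequence.

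RefSeq promoter windows of the same build, from 250 bases before to 50 bases after the start, were matched by symbol for 4 of the 6 genes: Csf1, Csf2ra, Csf2rb2 and Csf3r. The motif of STAT6, TTCNNNNGAA, occurred in none of the 4 windows and in 7.0% of all 32851 windows. The shorter STAT motif TTCNNNGAA occurred in Csf2rb2 alone among them, 15 bases before the start, and in 8.3% of all windows. Both motifs read the same on either strand. The core motif of PU.1, GAGGAA on either strand, occurred in Csf2ra, Csf2rb2 and Csf3r, and in 28.3% of all windows. The 250 bases before the start are printed for Csf2rb2, which holds a STAT match, and for Csf3r, the first of the genes to pass. Motif matches are in capitals. A match describes the letters only, and its absence says only that they are not in this window.

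Csf2rb2, chr15:78305722-78305971, minus strand: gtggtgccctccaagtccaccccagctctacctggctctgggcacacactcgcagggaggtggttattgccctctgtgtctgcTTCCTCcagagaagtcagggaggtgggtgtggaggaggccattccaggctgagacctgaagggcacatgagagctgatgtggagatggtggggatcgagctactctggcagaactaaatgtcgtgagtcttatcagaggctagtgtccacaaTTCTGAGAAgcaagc

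Csf3r, chr4:126024409-126024658, plus strand: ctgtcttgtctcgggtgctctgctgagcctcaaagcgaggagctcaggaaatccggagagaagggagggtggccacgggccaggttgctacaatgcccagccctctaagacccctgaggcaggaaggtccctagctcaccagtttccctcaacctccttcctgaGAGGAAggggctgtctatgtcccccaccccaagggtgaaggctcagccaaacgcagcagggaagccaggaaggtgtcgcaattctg

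In WT control cells at 0 h the 6 levels spanned nearly 3 orders of magnitude. Csf1r was highest, at 828 ± 99.1 FPKM (SD, n = 4), followed by Csf2ra at 118 ± 6.83, Csf2rb at 59.7 ± 8.75, Csf2rb2 at 49.8 ± 3.59 and Csf3r at 31.2 ± 2.31. Csf1, the gene of the ligand that was supplied to these cells from outside, was lowest at 0.970 ± 0.119 FPKM. The samples of Csf2rb (49.3 to 67.1) and Csf2rb2 (46.8 to 54.8) overlapped, and no other neighbours in this order did. With IL-4 for 24 h the order changed: Csf1r averaged 631 FPKM, Csf2rb 206, Csf2ra 169, Csf2rb2 138, Csf3r 27.0 and Csf1 1.75, with no overlap between neighbours.

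IL-4 changed these genes in WT cells at different times. Csf3r alone passed at 1 h, Csf1, Csf2rb and Csf3r had risen by 3 h, Csf2rb2 was also higher at 6 h, and all 6 differed from their controls at 24 h. Of all loci tested, 9.39%, 28.9%, 41.2% and 55.0% passed at 1, 3, 6 and 24 h, so that passing was common at the later times. At the stricter rule of a call, no member was called at 1 h, 1 of 6 at 3 h (Csf3r), 3 of 6 at 6 h (Csf1, Csf2rb and Csf3r) and 2 of 6 at 24 h (Csf2rb and Csf2rb2), against 1.49%, 3.88%, 5.54% and 8.50% of all loci. The median difference of the 5 receptors at the 4 times was -0.02, 0.05, 0.63 and 0.54, beside -0.02, 0.01, -0.00 and -0.07 over all loci.

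**Figure D1:**
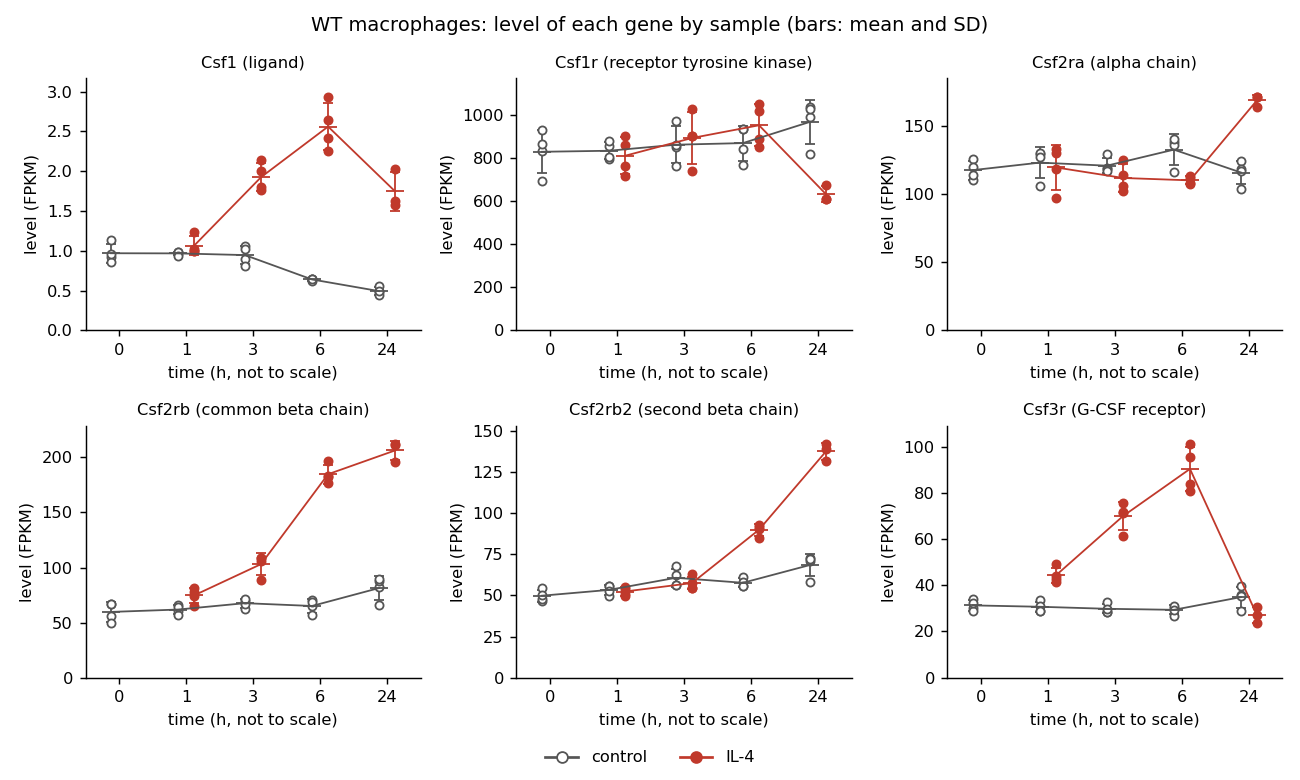
Level of each gene (FPKM, linear axis from 0) in every WT sample by time in hours, with open circles for controls, filled circles for IL-4 and bars for the mean and SD. Csf2rb and Csf2rb2 climbed to 24 h (means 206 and 138 FPKM), Csf3r peaked at 6 h (90.3) and was below its control mean at 24 h (27.0 against 34.8), and Csf1r was apart from its controls at 24 h alone (631 against 966).

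Csf3r, the G-CSF receptor gene, was the first to pass. At 1 h its level was 43.8, 41.4, 49.1 and 42.7 FPKM in the 4 IL-4 samples and 33.7, 28.9, 31.0 and 29.0 in the controls. At 3 h the IL-4 samples held 71.3, 61.1, 71.5 and 75.6 FPKM against 32.6, 28.4, 28.3 and 29.8 in the controls. At 6 h they held 83.8, 80.9, 101 and 95.5 against 30.3, 26.8, 31.1 and 29.1. At each of these times the lowest IL-4 sample was above the highest control, and the mean was 1.44, 2.35 and 3.08 times that of the control.

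The log2 difference of Csf3r was 0.52 after 1 h of IL-4 (SE 0.09, limma adjusted p = 6.07e-05), 1.20 after 3 h (SE 0.09, limma adjusted p = 9.18e-14) and 1.59 after 6 h (SE 0.09, limma adjusted p = 2.01e-17). The response grew by 0.69 from 1 to 3 h (limma adjusted p = 2.21e-04), as 11.1% of all loci changed theirs, while the further step of 0.39 to 6 h did not pass (limma adjusted p = 0.106). By 24 h the rise was gone, as the 3 IL-4 samples had 23.6, 27.1 and 30.4 FPKM and the controls 39.8, 28.7, 35.7 and 35.1. These ranges overlapped through control replicate 2, and the difference was -0.35 (SE 0.10, limma adjusted p = 0.003). From 6 to 24 h the response of Csf3r fell by 1.94 on the log2 scale (limma adjusted p = 4.27e-14), a step that passed at 27.8% of all loci.

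The summed neutrophil markers at 24 h were also lower with IL-4, at 227 to 329 FPKM against 454 to 632 in the controls, and the 2 ranges did not overlap. At 6 h the sums were 340 to 429 with IL-4 and 330 to 467 without, at 3 h 368 to 464 and 339 to 464, and at 1 h 365 to 547 and 315 to 581, so the ranges with and without IL-4 overlapped at the times when Csf3r rose. The part that cells with these markers have in the lower Csf3r level at 24 h was not tested. In RNA of a whole culture, fewer cells of a type and less RNA per cell cannot be told apart. A Tukey-adjusted analysis of variance, the kind of test the study used, gave Csf3r at 24 h an adjusted p of 0.0965.

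Csf2rb, the common beta chain, rose more slowly and stayed up. At 3 h its level was 109, 88.3, 106 and 109 FPKM with IL-4 and 69.7, 62.1, 66.8 and 71.8 in the controls. At 6 h the IL-4 samples had 183, 177, 197 and 182 FPKM and the controls 64.7, 56.7, 70.1 and 68.7. At 24 h they had 211, 196 and 212 against 82.5, 66.0, 87.3 and 89.5. No IL-4 sample was as low as any control of its time from 3 h on, and the means were 1.52, 2.84 and 2.54 times those of the controls.

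At 1 h Csf2rb was at 74.2, 64.9, 81.6 and 77.9 FPKM with IL-4 and at 60.8, 56.8, 65.6 and 64.0 without, and the ranges overlapped. That difference of 0.27 (SE 0.14) did not pass (limma adjusted p = 0.302). In a fit with the replicate number as a block it did (limma adjusted p = 0.00294). The later differences passed without the block, at 0.60 (SE 0.14, limma adjusted p = 0.00101), 1.50 (SE 0.14, limma adjusted p = 2.66e-11) and 1.34 (SE 0.15, limma adjusted p = 2.35e-09). The response increased by 0.90 between 3 and 6 h (limma adjusted p = 0.00501), a step that passed at 3.31% of all loci, and the change of -0.15 from 6 to 24 h did not pass (limma adjusted p = 0.623). Without any 1 of the 4 WT replicates the step from 3 to 6 h kept its size (0.83 to 0.93) and its limma adjusted p was 0.0639 to 0.0803.

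Csf2rb2, the second beta chain, began later than its neighbour. At 3 h it stood at 63.0, 54.8, 57.7 and 54.6 FPKM with IL-4 and at 67.7, 62.4, 56.2 and 56.6 in the controls, ranges that overlapped (difference -0.08, SE 0.12, limma adjusted p = 0.714). At 6 h the IL-4 samples held 92.9, 90.3, 91.9 and 84.8 FPKM and the controls 61.3, 56.0, 57.9 and 55.5. At 24 h they held 139, 132 and 142 against 71.1, 58.4, 72.6 and 71.9. The groups were apart at 6 and 24 h, where the level was 1.56 and 2.01 times that of the controls.

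The difference of Csf2rb2 was 0.63 at 6 h (SE 0.12, limma adjusted p = 2.29e-05) and 1.00 at 24 h (SE 0.13, limma adjusted p = 1.67e-08), which placed it at the 2-fold limit of a call. Without WT replicate 2, whose 24 h control was the lowest, the 24 h value was 0.92 and the gene was not called. The response grew by 0.71 from 3 to 6 h (limma adjusted p = 0.00732), and leaving out any 1 WT replicate gave 0.66 to 0.74 with a limma adjusted p of 0.0804 to 0.132. At 1 h the difference was -0.02.

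The share of Csf2rb in the summed level of both beta chains was also followed. In WT controls it was 53.7% ± 1.2 (SD, n = 4), 52.7% ± 2.9, 52.9% ± 2.5 and 54.2% ± 1.0 at 1, 3, 6 and 24 h. With IL-4 it was 58.7% ± 2.0, 64.1% ± 2.1, 67.3% ± 1.1 and 60.0% ± 0.3 (n = 3 at 24 h). The IL-4 and control ranges did not overlap at any of the 4 times. The exact two-sided permutation test gave p = 0.0286 at each time, the smallest the design allows, and 0.0286 after Benjamini-Hochberg adjustment over the 4 tests.

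The sum of both chains with IL-4 rose from 127 ± 8.88 FPKM at 1 h to 160 ± 12.2, 275 ± 10.2 and 344 ± 13.8 at the later times, beside control means of 115 to 150 FPKM from 1 to 24 h. In Stat6KO the share lay between 52.1% and 59.6% in all 18 samples and was not tested. Its Stat6KO means with IL-4 were 56.3%, 57.4%, 56.6% and 58.3% at 1, 3, 6 and 24 h. Those of the Stat6KO controls were 54.1%, 54.3%, 54.9% and 57.2%, lower at each time, and the ranges overlapped. Fragments from the words the 2 genes share enter both values, so the share depends on how they were assigned.

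**Figure D2:**
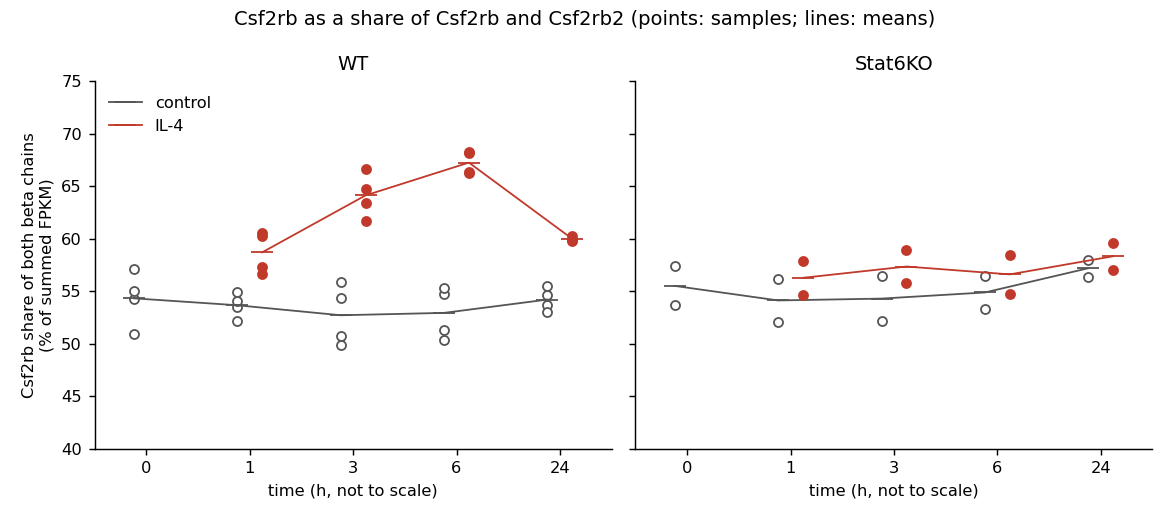
Csf2rb as a percentage of the summed FPKM of Csf2rb and Csf2rb2 (vertical axis from 40 to 75%) by time in hours, with open circles for control samples, filled circles for IL-4 samples and lines through the means. In WT the IL-4 mean was highest at 6 h (67.3% against 52.9%) and had come back to 60.0% by 24 h. All Stat6KO samples lay between 52.1% and 59.6%, with the IL-4 mean above the control mean at each time and overlapping ranges.

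Csf2ra, the chain that gives GM-CSF its specific binding, moved down slightly before it moved up. At 6 h its level was 112, 107, 108 and 113 FPKM with IL-4 and 138, 136, 116 and 140 in the controls. At 24 h it was 164, 171 and 171 with IL-4 and 124, 118, 104 and 117 without. The groups were apart at both times, with IL-4 lower at 6 h and higher at 24 h.

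The 6 h difference of Csf2ra was -0.26 (SE 0.10, limma adjusted p = 0.0277). The limma adjusted p was 0.0979, 0.135 and 0.104 without WT replicate 1, 2 or 4, and the Tukey-adjusted p was 0.383. The 24 h difference of 0.54 (SE 0.10) passed with a limma adjusted p of 3.40e-05, the mean being 1.46 times that of the controls. Between 6 and 24 h the response increased by 0.80 (limma adjusted p = 2.78e-05). At 1 and 3 h the differences were -0.05 and -0.11 and did not pass, with IL-4 samples at 96.9 to 133 FPKM and controls at 106 to 130 over both times.

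Csf1r, the M-CSF receptor gene, did not pass before 24 h, when its samples were at 610, 610 and 673 FPKM with IL-4 and at 988, 816, 1033 and 1028 in the controls. The highest IL-4 sample was below the lowest control, and the mean was 65.3% of the control mean (difference -0.61, SE 0.16, limma adjusted p = 0.00165). At 6 h the levels were 889, 849, 1015 and 1049 FPKM with IL-4 and 842, 765, 932 and 933 without, ranges that overlapped. The differences of -0.05 at 1 h, 0.05 at 3 h and 0.13 at 6 h did not pass (SE 0.15 each). The response fell by 0.74 on the log2 scale between 6 and 24 h (limma adjusted p = 0.00966), and the limma adjusted p was 0.111 without WT replicate 3 and 0.0569 without WT replicate 4.

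Csf1, the ligand gene, was near the 1 FPKM limit of the filter throughout, yet its ratio of 3.99 at 6 h was the largest of the 6 genes in WT. At 3 h it was at 2.14, 1.76, 1.80 and 2.0 FPKM with IL-4 and at 0.903, 1.06, 0.804 and 1.02 in the controls. At 6 h it was at 2.42, 2.64, 2.93 and 2.25 with IL-4 and at 0.645, 0.649, 0.620 and 0.649 without. At 24 h it was at 2.03, 1.63 and 1.58 against 0.480, 0.441, 0.562 and 0.494. Every IL-4 sample from 3 h on was above every control of its time, and the ratio of the mean FPKM was 2.03, 3.99 and 3.53.

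Part of that ratio lay in the controls, whose mean went from 0.968 FPKM at 1 h to 0.641 at 6 h and 0.494 at 24 h. The log2 differences of Csf1 were 0.07 at 1 h (SE 0.15, limma adjusted p = 0.884), 0.59 at 3 h (SE 0.15, limma adjusted p = 0.00259), 1.11 at 6 h (SE 0.15, limma adjusted p = 1.34e-07) and 0.88 at 24 h (SE 0.16, limma adjusted p = 2.74e-05). At 1 h the IL-4 samples were at 1.24, 1.02, 0.997 and 1.00 FPKM and the controls at 0.983, 0.964, 0.986 and 0.939, close together but apart. The Tukey-adjusted p at 3 h was 0.0521.

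**Figure D3:**
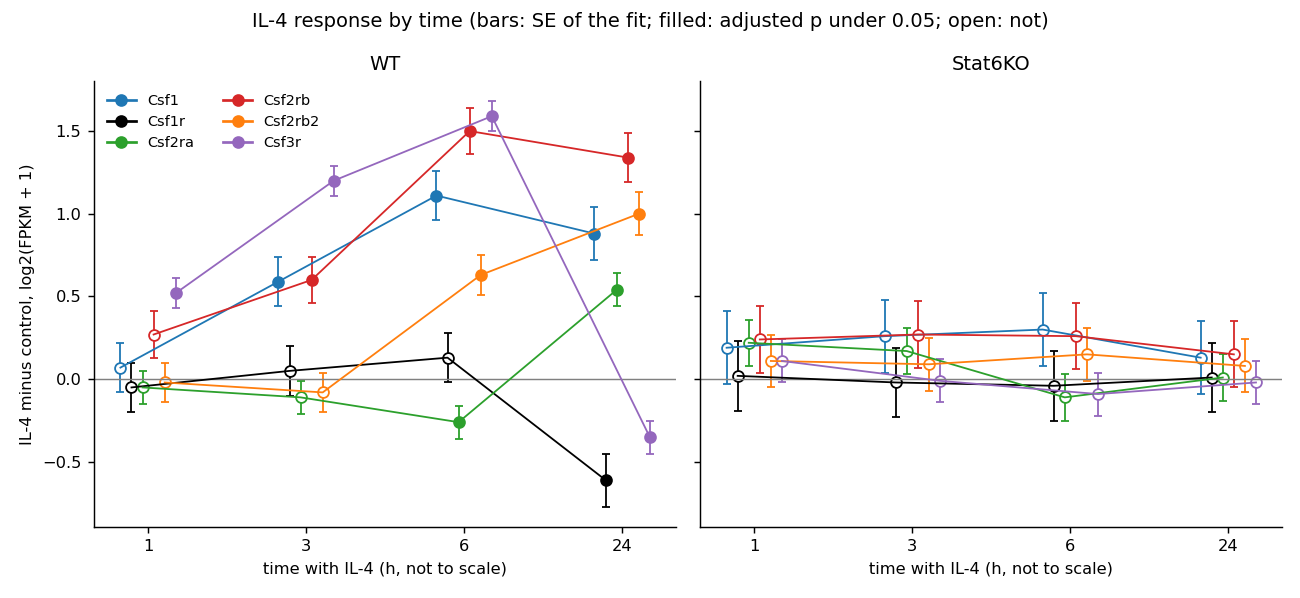
Difference between IL-4 and control samples (log2(FPKM + 1), vertical axis) by time with IL-4 in hours for WT and Stat6KO, with bars for the SE of the fit, filled circles where the limma adjusted p was under 0.05 and open circles where it was not. In WT the differences ranged from -0.61 (Csf1r, 24 h) to 1.59 (Csf3r, 6 h), and in Stat6KO all circles are open, between -0.11 and 0.30.

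In Stat6KO cells none of the 24 comparisons of IL-4 with control passed, by limma or by the Tukey-adjusted analysis of variance, and none had an unadjusted p under 0.05. The differences lay between -0.11 and 0.30 with an SE of 0.13 to 0.22. No locus passed in this genotype at any time, that is 0% of 11146, and 51, 131, 88 and 37 loci had an unadjusted p under 0.05 at 1, 3, 6 and 24 h. Chance alone would give such a p to a share of 0.05 of the loci tested, far more than these counts. The test was thus stricter than its threshold in this genotype. Its same-numbered control and IL-4 samples deviated from their group means together (r 0.791 to 0.9), which this fit leaves in the error. With 2 samples per group and this error, these data do not show that the levels were equal.

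The 2 Stat6KO replicates stood apart for several of these genes. Csf1 in replicate 1 was 0.330 to 0.569 times its level in replicate 2 in the 7 groups up to 6 h, and 0.928 and 1.84 times in the groups at 24 h. Csf1r was at 985 to 1081 FPKM in replicate 1 and 696 to 752 in replicate 2 up to 6 h, a ratio of 1.38 to 1.53, and the ratio was 0.972 and 1.04 at 24 h. For Csf2rb2 the ratio was 1.02 to 1.31 up to 6 h and 1.70 and 1.72 at 24 h.

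These differences entered the error of every Stat6KO test. Within a replicate number the IL-4 and control levels were closer: Csf2rb at 6 h was 100 and 70.2 FPKM with IL-4 and 85.2 and 57.6 in the controls, and it was higher with IL-4 in 8 of 8 same-numbered Stat6KO pairs, as Csf2rb2 was, against 15 of 15 WT pairs for Csf2rb and 9 of 15 for Csf2rb2. Csf1 was higher in 7 of 8 Stat6KO pairs and 15 of 15 WT pairs. For Csf3r it was 2 of 8 and 12 of 15.

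**Figure D4:**
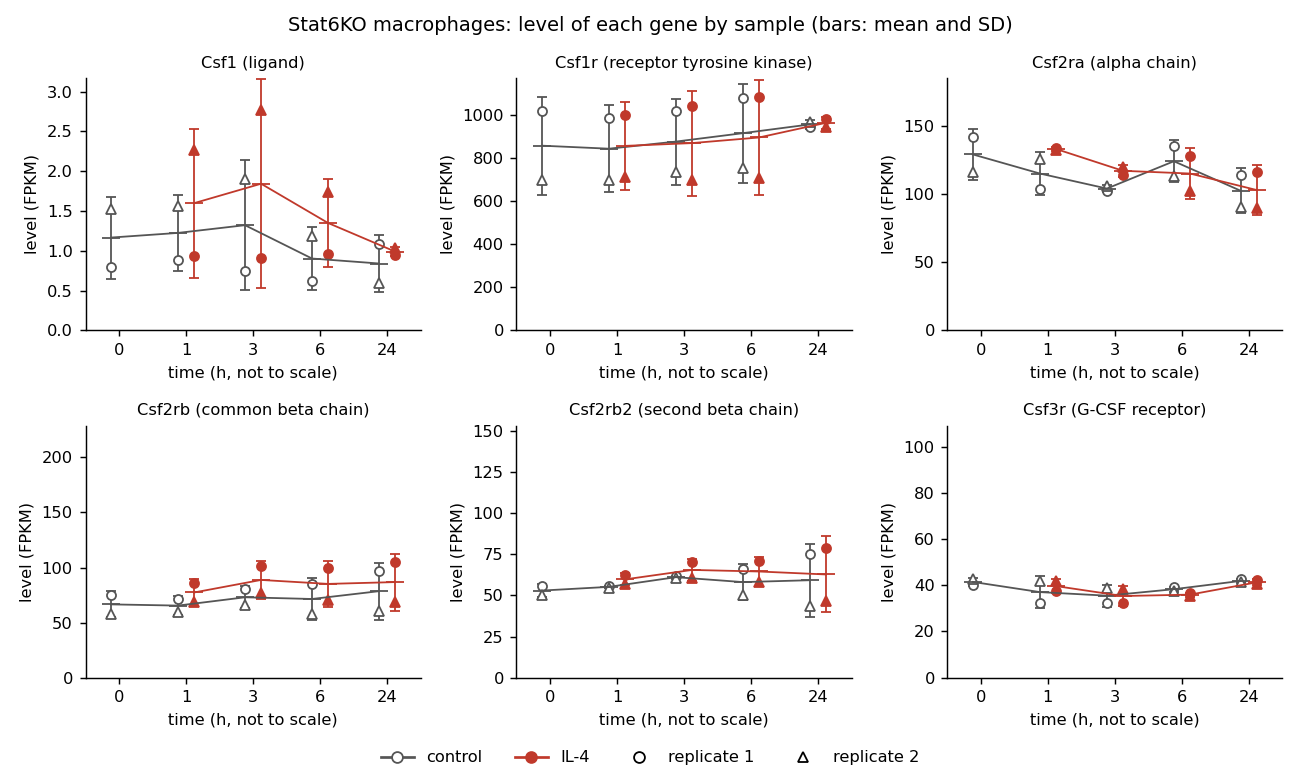
Level of each gene (FPKM, linear axis from 0, same scale for each gene as in the WT plot) in every Stat6KO sample by time in hours, with circles for replicate 1, triangles for replicate 2, open symbols for controls, filled symbols for IL-4, and bars for the mean and SD. The replicates were far apart for Csf1 and Csf1r up to 6 h and for Csf2rb2 at 24 h, and no difference between IL-4 and control passed.

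The difference between the WT and the Stat6KO response was tested directly, as an interaction, and passed in 8 of 24 comparisons. Such differences passed at 3.36%, 11.2%, 16.5% and 27.0% of all loci at 1, 3, 6 and 24 h. For Csf3r the WT response exceeded that of Stat6KO by 1.21 at 3 h (SE 0.16, limma adjusted p = 2.84e-07) and by 1.68 at 6 h (SE 0.16, limma adjusted p = 1.20e-10). At 6 h the Stat6KO samples of Csf3r were at 36.5 and 35.3 FPKM with IL-4 and at 39.0 and 37.5 without, while the WT IL-4 samples began at 80.9.

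For Csf2rb the WT response was larger by 1.24 at 6 h (SE 0.25, limma adjusted p = 2.58e-04) and by 1.19 at 24 h (SE 0.25, limma adjusted p = 4.33e-04). At 24 h Stat6KO samples of Csf2rb were at 105 and 68.5 FPKM with IL-4 and at 96.8 and 60.2 without. For Csf2rb2 the interaction passed at 24 h, at 0.92 (SE 0.21, limma adjusted p = 8.38e-04), but not at 6 h, at 0.48 (limma adjusted p = 0.103). Its Stat6KO samples at 24 h had 79.1 and 46.4 FPKM with IL-4 and 74.9 and 43.6 without.

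For Csf2ra the interaction at 24 h was 0.54 (SE 0.17, limma adjusted p = 0.017), with Stat6KO samples at 116 and 89.7 FPKM with IL-4 and at 114 and 90.6 without. That p was 0.0828 without WT replicate 3. For Csf1 the interaction was 0.81 at 6 h (SE 0.26, limma adjusted p = 0.0277) and 0.75 at 24 h (SE 0.27, limma adjusted p = 0.036). Its Stat6KO samples at 6 h were at 0.959 and 1.74 FPKM with IL-4 and at 0.627 and 1.18 without. Without any 1 of the 4 WT replicates the limma adjusted p of Csf1 was 0.0722 to 0.131 at 6 h and 0.0793 to 0.163 at 24 h.

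Whether the lower Csf1r level at 24 h differed between the genotypes depended on the fit. Stat6KO samples were at 981 and 943 FPKM with IL-4 and at 941 and 968 without, a difference of 0.01 (SE 0.21), and the interaction of -0.62 (SE 0.27) did not pass in the fit of all groups (limma adjusted p = 0.0776). It was -0.62 with a limma adjusted p of 0.0499 when only the 4 groups compared were fitted. Without Stat6KO replicate 2, which leaves 1 sample in each Stat6KO group, it was -0.67.

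Without IL-4 the genotypes differed little. Over all control samples only Csf3r passed, at 38.8 ± 3.89 FPKM in Stat6KO (SD, n = 10) and 31.2 ± 3.19 in WT (n = 20), a difference of 0.31 (SE 0.05, limma adjusted p = 1.87e-05). The ranges overlapped, from 32.1 to 42.7 and from 26.8 to 39.8. Of all loci 21.4% passed in this comparison. The summed neutrophil markers were higher in Stat6KO controls as well, at 598 to 1089 FPKM against 315 to 632 in WT controls, and their part in the higher Csf3r level was not tested. The control samples of a genotype repeat the same few replicate numbers at each time, and the fit counts them as independent. Same-numbered samples deviated from their group means together, at a mean r of 0.715 in Stat6KO and 0.223 in WT. The SE and limma adjusted p of this genotype comparison are therefore likely too small, for every gene. The fit with a replicate block did not include it.

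The other 5 genes differed by -0.09 to 0.20 between the genotypes and did not pass. Leaving out a Stat6KO replicate leaves 1 sample in each Stat6KO group, so only the size of the difference is given for such fits. For Csf1r the difference of 0.02 was -0.18 without Stat6KO replicate 1 and 0.21 without Stat6KO replicate 2. Csf1 was at 0.20 in all samples (limma adjusted p = 0.0936) and at 0.36 without Stat6KO replicate 1. Csf2ra went from -0.09 to -0.15 and Csf2rb2 from -0.02 to -0.15 without replicate 1, and Csf2rb from 0.07 to 0.29 without replicate 2.

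In WT controls both beta chains were higher at 24 h than at 0 h. At 0 h Csf2rb was at 55.5, 49.3, 67.1 and 66.7 FPKM, and its mean in controls went from 59.7 at 0 h to 81.3 at 24 h (0.44, SE 0.14, limma adjusted p = 0.0272). Csf2rb2 was at 46.8, 47.6, 54.8 and 50.1 FPKM at 0 h, all below its 24 h controls, and its mean went from 49.8 to 68.5 (0.45, SE 0.12, limma adjusted p = 0.00603). This comparison passed at 17.2% of all loci.

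Without any 1 WT replicate the limma adjusted p of Csf2rb over this interval was 0.0691 to 0.21, and that of Csf2rb2 was 0.0897, 0.0514 and 0.0739 without replicate 1, 3 or 4. Csf1 did not pass: its mean was 0.970 FPKM at 0 h and 0.494 at 24 h, with no overlap of samples, and the difference was -0.40 (SE 0.15, limma adjusted p = 0.0668). With a pseudocount of 0.1 FPKM it was -0.85 (limma adjusted p = 0.0178).

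Over the 18 group means the 2 beta chains had the most similar patterns among the 6 genes, with a Pearson r of 0.91. Csf1r and Csf2ra were the most opposed, at -0.82, and Csf2rb2 and Csf3r were unrelated, at 0.03. In WT with IL-4 for 24 h Csf1r had its lowest group mean (631 FPKM) and Csf2ra its highest (169). The means of all other groups lay at 809 to 966 FPKM for Csf1r and at 102 to 133 for Csf2ra. These coefficients describe group means that share libraries and controls and carry no test.

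Among 8398 other loci, the 2 with the pattern nearest to Csf3r were Laptm4a (r = 0.953) and Ehd4 (r = 0.951), and those nearest to Csf2rb were Sec23ip (r = 0.962) and Nek6 (r = 0.961). For Csf2rb2 they were Nsmf (r = 0.946) and Uso1 (r = 0.941), and for Csf1 they were Scimp (r = 0.943) and Ube2e1 (r = 0.932). The group means of Csf1r and Csf2ra spanned only 0.61 and 0.73 on the log2 scale, too little for such a match.

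The other ligands of the family were hardly measured. Il3 was listed at 0 in all 53 samples, Csf2 (GM-CSF) in 50, Il34 (the second ligand of the M-CSF receptor) in 49, Il5 in 42 and Csf3 (G-CSF) in 32, and the highest value of any of them was 0.172 FPKM, for Csf3. Il5ra reached 0.0334 FPKM. Il3ra, the alpha chain for IL-3 and a partner of the beta chains, averaged 30.6 FPKM and passed at no time, with differences of -0.06, -0.03, -0.22 and -0.43.

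Of 19 signal transducers downstream of the receptors, 5 were higher and 4 lower with IL-4 at 3 h, 4 and 8 at 6 h, and 2 and 10 at 24 h, beside 28.9%, 41.2% and 55.0% of all loci that passed at these times. Their median differences were -0.10, -0.14 and -0.21, beside 0.01, -0.00 and -0.07 over all loci. At 1 h 2 were higher and 1 lower. Jak2, the kinase that the beta chains borrow, was at 38.1 ± 1.87 FPKM with IL-4 at 3 h (SD, n = 4) and 11.0 ± 0.559 without, a difference of 1.70 (limma adjusted p = 1.56e-17). At 6 h it was at 39.9 ± 4.27 against 11.1 ± 1.30. Its response at 6 h was larger in WT than in Stat6KO by 1.67 (limma adjusted p = 5.02e-10).

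Lyn and Fgr, kinases of the Src family, moved in different directions at 3 and 6 h, and both were lower with IL-4 at 24 h. Lyn fell by 1.05 on the log2 scale at 6 h, from 78.8 to 37.4 FPKM (limma adjusted p = 4.59e-05). Its difference at 24 h was -0.77 (limma adjusted p = 0.00288). Fgr rose at 3 h (0.88, limma adjusted p = 1.73e-07) and was lower at 24 h (-0.97, limma adjusted p = 7.14e-08). The adaptor Shc1 was the only transducer called at 24 h, at 43.0 ± 2.11 FPKM against 19.7 ± 1.70 (1.09, limma adjusted p = 1.72e-14).

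The 3 most abundant transducers not called were Tyrobp (mean 2254 FPKM over all samples), an adaptor that links to Csf1r signalling, the kinase Mapk3 (167) and the adaptor Grb2 (95.3). At 6 h all 3 were lower, by -0.26, -0.56 and -0.22 (limma adjusted p = 0.0363, 7.19e-04 and 0.00503). Stat5a, which the beta chains activate, was higher at 6 h (0.39, limma adjusted p = 1.25e-04) and Stat5b lower (-0.24, limma adjusted p = 0.00187).

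**Figure D5:**
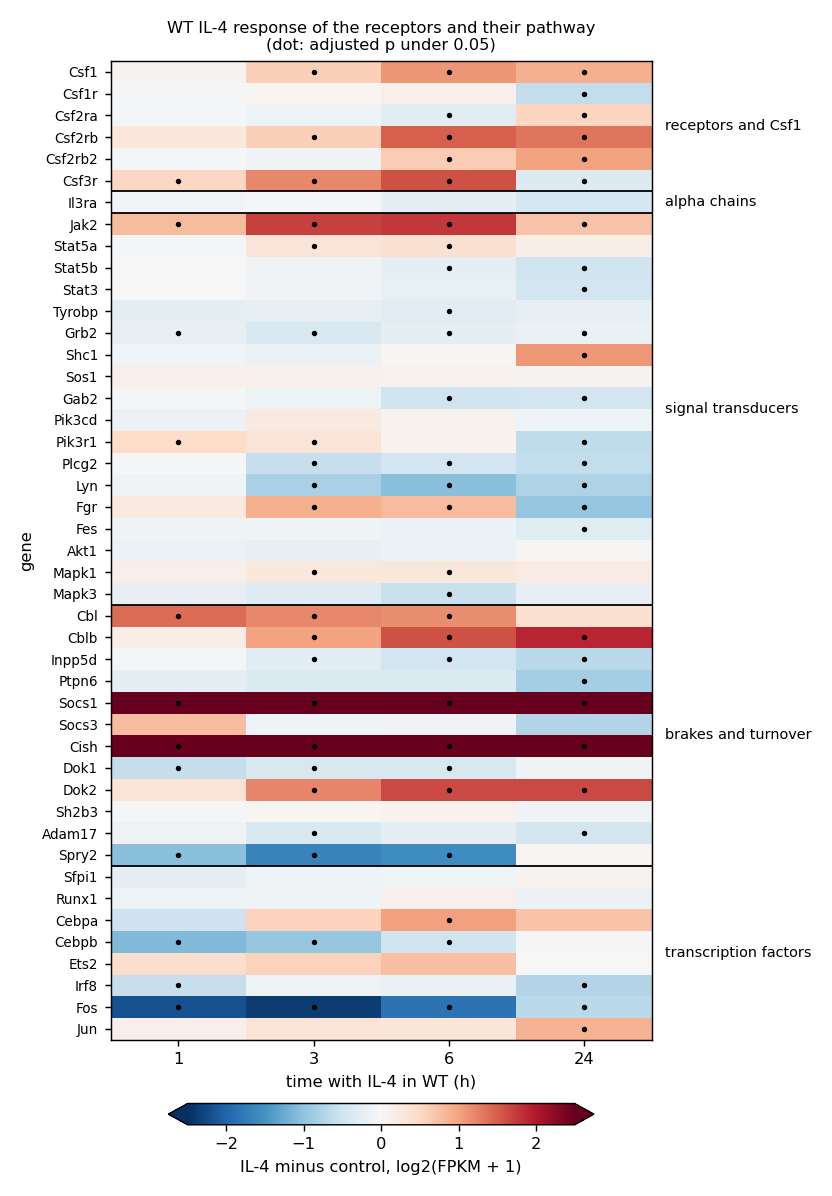
Difference between IL-4 and control WT samples (colour, log2(FPKM + 1), cut at 2.5 in either direction) for the 6 genes and 39 of the 41 tested genes of the pathway lists at 1, 3, 6 and 24 h, with a dot where the limma adjusted p was under 0.05. Socs1 and Cish were higher at all 4 times, Jak2 too, and Csf1r stayed pale until 24 h.

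Among the brakes on these receptors, 12 of the 13 genes listed were tested, and 5 of them were called higher at both 3 and 6 h, when 2.61% and 3.18% of all loci were. Socs1, which blocks JAK kinases, was at 95.3 ± 21.1 FPKM with IL-4 at 1 h and 0.592 ± 0.172 without (5.90, limma adjusted p = 3.04e-20). Cish, which acts against STAT5 signalling, was at 42.6 ± 8.69 FPKM at 3 h against 0.414 ± 0.123 (4.93, limma adjusted p = 3.97e-27). Both were still called at 24 h, at 14.8 and 16.8 FPKM.

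The ubiquitin ligase Cbl, which sends the M-CSF receptor to degradation, was at 23.6 ± 6.14 FPKM at 1 h against 8.27 ± 1.99 (1.40, limma adjusted p = 1.71e-05). Its relative Cblb rose later, to 22.1 ± 4.26 FPKM at 24 h against 5.14 ± 0.218 (1.90, limma adjusted p = 3.90e-12). The adaptor Dok2 was at 151 ± 12.4 against 47.4 ± 8.51 at 6 h (1.66, limma adjusted p = 1.06e-14). Spry2, an inhibitor of receptor tyrosine kinase signalling, was lower, at 0.822 ± 0.302 FPKM against 4.98 ± 1.98 at 3 h (-1.67, limma adjusted p = 3.28e-05).

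Of the abundant brakes not called, the phosphatase Ptpn6 was at 117 ± 3.98 FPKM against 211 ± 15.1 at 24 h (-0.84, limma adjusted p = 3.64e-05). The protease Adam17, which sheds the M-CSF receptor, was at 62.3 ± 1.83 against 86.4 ± 3.51 (-0.46, limma adjusted p = 0.00749). Inpp5d, a lipid phosphatase, was at 46.6 ± 1.61 against 74.8 ± 3.39 (-0.67, limma adjusted p = 9.96e-12). In Stat6KO none of the 41 tested pathway genes passed with IL-4 at any time. Cish was nevertheless higher with IL-4 there, at 1.37 against 0.258 FPKM at 1 h (0.92, SE 0.20, limma adjusted p = 0.402). At 3 h it was at 1.71 against 0.467 FPKM (0.87, SE 0.20, limma adjusted p = 0.589). At 6 and 24 h its differences were 0.52 and 0.16. Socs1 in Stat6KO differed by 0.96 at 1 h (SE 0.37), at 2.78 ± 2.40 FPKM against 0.768 ± 0.431. These tests do not show that the response was absent.

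The transcription factors known to act at the Csf1r gene were mixed. Sfpi1 (PU.1) averaged 253 FPKM and passed at no time, with differences of -0.25, -0.11, -0.07 and 0.08. Fos was at 21.1 ± 3.00 against 113 ± 11.1 at 3 h (-2.37, limma adjusted p = 1.14e-14).

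Cebpb was lower at 1 h (6.23 against 14.6 FPKM, -1.11, limma adjusted p = 7.05e-08) and Cebpa higher at 6 h (64.4 against 31.1 FPKM, 1.03, limma adjusted p = 0.00639). Irf8 was lower at 24 h, at 49.1 ± 2.08 FPKM against 82.6 ± 5.53 (-0.74, limma adjusted p = 2.90e-08). Jun was higher at 24 h (0.86, limma adjusted p = 0.00606). Of the 9 factors, 2 were higher and 2 lower at 6 h, and 1 higher and 3 lower at 24 h, beside 41.2% and 55.0% of all loci that passed at those times.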

How the data were processed

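Total RNA of BMDMs was made into poly-A selected libraries (TruSeq). The authors mapped reads to mm10 with TopHat and computed FPKM with Cufflinks. The submitters' processing notes name TopHat2 2.0.7 and Cufflinks 2.0.2, and the annotation is not given in the sources used here. The deposited values are FPKM, 1 table per sample, scaled within each sample, so that a change in abundant genes shifts all others, and they are not counts. The tables were joined on locus and symbol, and 4316 estimates that differed from 0 only by rounding were set to 0. No pair of samples held identical values.

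The 11146 of 23847 loci that reached 1 FPKM in some sample were fitted as log2(FPKM + 1) with a mean per group over all 53 samples in limma 3.58.1 (R 4.3.3; eBayes with intensity trend, two-sided, 35 residual degrees of freedom, Benjamini-Hochberg adjustment per contrast at 0.05, calls at an absolute log2 difference of 1). The Csf2rb share was compared by an exact permutation test over all arrangements of the samples (Python 3.11.15, numpy 2.4.6). Groups came from the sample labels. The study speaks of individual animals per genotype, but the labels tie no replicate number to an animal, so p-values measure the spread between samples.

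The study used a 2-way analysis of variance with Tukey's test. A 1-way form of it, over all groups but those at 0 h, was run here on log2(FPKM + 1) as an alternative. Others were another pseudocount (0.1 FPKM), other filters (none, or 5 FPKM), quantile normalization and a replicate block. Fits of only the groups compared, and fits with each replicate left out, were also run. A random effect of the replicate number was added after the data were seen. Genes, lists and tests were chosen with earlier results of these data known. Named were all 6 members, Stat6, the 2 loci nearest in pattern to each member whose group means spanned a log2 difference of 1, the listed pathway genes called with IL-4 in WT (2 of them are counted but not reported by name here), and up to 3 further abundant genes per list. Stat5a, Stat5b, Fgr and the ligands listed at or near 0 were also named, after their values were seen. Transcript sequences for the comparison of 50-base words came from GENCODE, on mm10.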

Additional observations from a re-analysis of the deposited data

Results flagged for a closer look

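In 7 of the 48 WT groups of 4 samples that could be examined for the 6 genes, 1 sample lay far from the other 3 by Dixon's test (2.4 such groups would be expected by chance). Csf1 was 1.24 FPKM in replicate 1 with IL-4 for 1 h, where the others had 0.997 to 1.02, and 0.620 in replicate 3 of the 6 h controls, where the others had 0.645 to 0.649. For Csf2ra the stray values were 106 FPKM in replicate 2 of the 1 h controls (others 127 to 130), 129 in replicate 1 of the 3 h controls (others 117 to 119) and 116 in replicate 3 of the 6 h controls (others 136 to 140). Csf2rb was 88.3 FPKM in replicate 2 with IL-4 for 3 h (others 106 to 109), and Csf2rb2 was 58.4 in replicate 2 of the 24 h controls (others 71.1 to 72.6).

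The response to IL-4 differed between WT and Stat6KO, by the limma test of the difference itself, for 5 of the genes, always with the larger value in WT. On the log2 scale the differences were 0.81 and 0.75 for Csf1 at 6 and 24 h, 0.54 for Csf2ra at 24 h, 1.24 and 1.19 for Csf2rb at 6 and 24 h, 0.92 for Csf2rb2 at 24 h, and 1.21 and 1.68 for Csf3r at 3 and 6 h. The 2 samples of each Stat6KO group limit how finely these differences are known.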

How the results depend on the processing

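The 6 genes gave 108 comparisons, of which 32 passed, and 1212 values under other settings. Of these, 1134 kept their side of the threshold, 36 no longer passed (29 of them with a replicate left out, 12 comparisons in all) and 41 passed anew. Among the 1134 were 23 whose sign changed while neither value passed. The 1212 values include fits without a Stat6KO replicate, which leave 1 sample in each Stat6KO group and so hold no spread within Stat6KO. The Stat6KO against WT difference of Csf1r in controls turned from 0.02 to -0.18 without Stat6KO replicate 1 and was 0.21 without Stat6KO replicate 2. The count of genes called with IL-4 in WT at 24 h was 1 to 2 over the fits without 1 replicate, the 1 being without WT replicate 2. With a pseudocount of 0.1 FPKM Csf1 was called as well at 24 h in WT (1.63) and in the interactions at 6 h (1.30) and 24 h (1.37), which brought these counts to 3, 3 and 2 instead of 2, 2 and 1. Besides those named with the results, the interaction at 24 h was not passed by Csf2ra (0.0711) or Csf2rb2 (0.0956) when only the groups compared were fitted, by Csf2ra with quantile normalization (0.0514), or by Csf1 with no filter (0.0548), all limma adjusted p-values. A minimum of 5 FPKM leaves Csf1 untested. In the main fit, which has no quantile normalization, the median difference over all loci was at most 0.074 in either direction. Quantile normalization put Csf2rb2 at 24 h in WT at 0.93, under the limit of a call, and Csf1 at 1.04, above it.

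Same-numbered WT samples deviated from their group means together, at a mean r of 0.223. The mean r of -0.0744 for different numbers is no separate baseline, because deviations from a group mean cancel within the group. Of the same-numbered WT control and IL-4 samples, 13 of 15 pairs had an r over 0.1 (0.0265 to 0.561). In WT 29 of 35 samples correlated best with their own number. In Stat6KO all 8 such pairs had an r over 0.1 (0.791 to 0.9). The main fit leaves the replicate number out. A fit with the replicate number as a block left each count of called genes as it was (3 at 6 h and 2 at 24 h in WT), lost no call, and let 13 more comparisons pass, Csf2rb at 1 h (0.27, limma adjusted p = 0.00294) and the Csf1r interaction at 24 h (-0.63, limma adjusted p = 3.23e-04) among them. As a random effect the number let 12 more pass.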
